A study of Mus musculus with 29 samples.

Results

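Bone marrow labelled senescence was compared with bone marrow labelled transition in mice that carry the fusion oncogene MLL-ENL-ERtm. The comparison comprised 7 of the 29 arrays of the series, 3 of senescence and 4 of transition, chosen by their titles. MLL-ENL joins the chromatin regulator MLL to ENL and causes myeloid disease. Its ERtm tail comes from the oestrogen receptor and lets tamoxifen switch the fusion on. Every mouse, wild-type controls included, ate chow with tamoxifen at 300 mg/kg. Transition marrow was taken after 7 to 8 months of tamoxifen and is labelled as a period of lower proliferation with high DNA damage response activity. Senescence marrow was taken after 8 months. The 4 proliferation arrays (7 months, the same genotype) and 4 wild-type arrays (7 or 8 months) entered the fit and are given here as levels for orientation. The sources used here give neither the promoter that drives the fusion, nor the strain, nor the age in months. Each array is called a biological replicate in the labels, with nothing on which mouse it came from, so p-values measure the spread between these samples. The RNA came from marrow cells of mixed type, where fewer cells of a type and less RNA per cell cannot be told apart.

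Senescence is a lasting arrest of cell division that oncogenes can set off through the DNA damage response, a cascade in which the kinases ATM and ATR act through CHK1, CHK2 and p53. Inhibitors of cyclin-dependent kinases hold the arrest, and senescent cells are known to secrete chemokines, cytokines and proteases. Chemokines such as CCL3 and CXCL2 draw monocytes and neutrophils, and their genes are switched on within minutes by NF-kappa B and by the immediate-early transcription factors FOS, JUN and EGR1.

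The arrays were checked before the groups were compared. Markers of mature neutrophils, the main cells of mouse marrow, had a mean log2 level of 13.91 to 14.39 in transition and 14.04 to 14.47 in senescence. Esr1, whose hormone-binding part the construct carries, read 8.18 to 8.54 in transition and 8.28 to 8.39 in senescence, above the 5.60 to 6.65 of wild type. Pairs of transition arrays correlated at 0.965 to 0.992 over genes, and transition 1 had the lowest array weight (0.222) of the 15 marrow arrays. The gap from the 5' to the 3' control probe set of Gapdh, which widens as RNA degrades, was 1.87, 1.36, 1.21 and 1.18 in transition 1 to 4 and 1.55, 2.06 and 1.27 in senescence 1 to 3 (exact permutation test, two-sided, p = 0.429; the smallest p that 3 against 4 arrays allow is 0.0286). The female-specific RNA Xist was high in senescence 1 and in every transition array, and low in senescence 2 and 3 (7.61 and 7.02), where the Y-linked Eif2s3y read 11.79 and 11.89 (Xist difference -3.71, exact permutation p = 0.0571). Sex and state were thus partly mixed, with senescence 1 as the 1 female array of its group. Values without single arrays, or with the Xist level as covariate, are given beside the main results.

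No gene passed the test. Of 12394 genes, 0 (0%) had an adjusted p below 0.05 by limma with Benjamini-Hochberg adjustment, and the smallest adjusted p was 0.405, for Ccl3. At an unadjusted p under 0.05, 212 genes (1.71%) were lower in senescence and 168 (1.36%) were higher, 380 in all. The 3 senescence arrays all lay below the 4 transition arrays for 221 genes (1.78%) and above them for 185 genes (1.49%). The difference was above 0 for 5421 genes (43.7%), with a median of -0.03 over all genes on the log2 scale and a median standard error of 0.19. Of genes over 1 log2 unit apart, 107 were higher and 32 lower in senescence. The 107 genes over 1 log2 unit higher became 66 with the Xist level as covariate, 50 without senescence 2, 171 with array weights and 211 without senescence 3. The 32 genes over 1 log2 unit lower became 59 without senescence 3 and 64 with array weights.

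**Figure D1:**
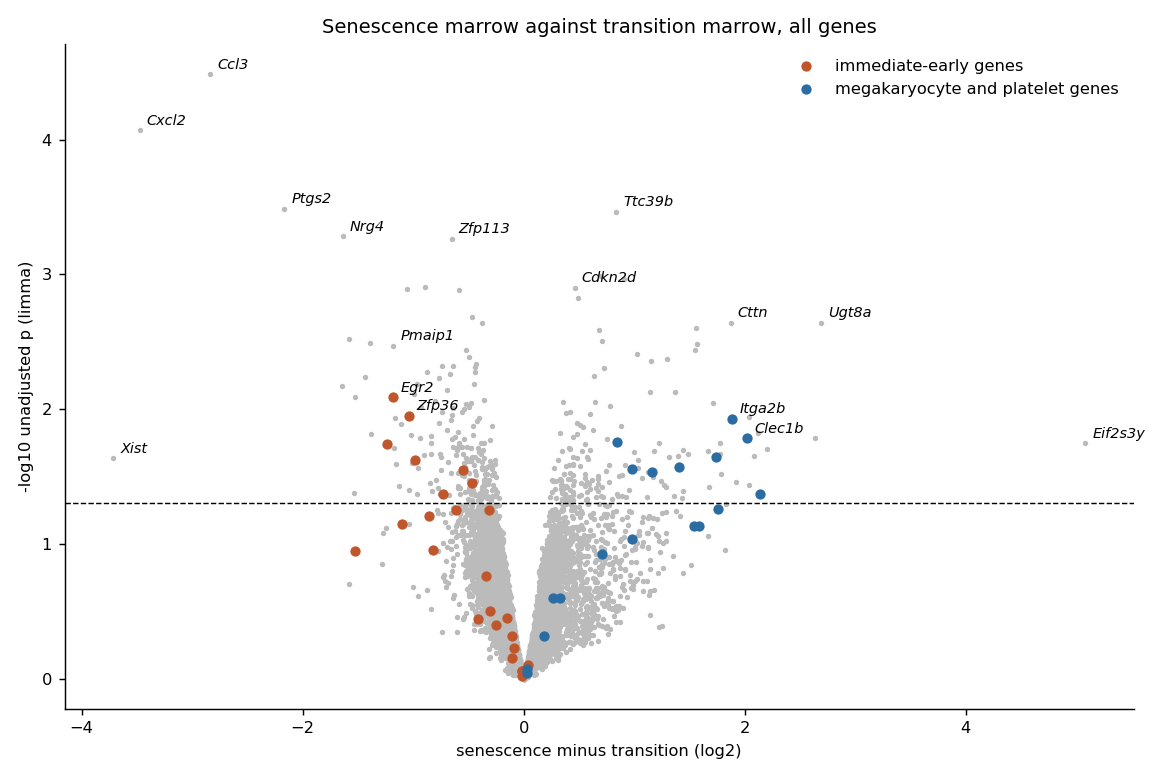
Senescence minus transition on the log2 scale (horizontal axis) against -log10 of the unadjusted p by limma (vertical axis) for 12394 genes, with a dashed line at the unadjusted threshold of 0.05. Ccl3, Cxcl2 and Ptgs2 lie farthest up on the lower side, the immediate-early genes (orange) lie almost wholly left of 0, and the megakaryocyte and platelet genes (blue) lie right of 0.

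The 3 genes with the smallest p, Ccl3, Cxcl2 and Ptgs2, were inflammatory genes. Next in rank came Ttc39b, Nrg4, Zfp113, Cyp4b1 and Gspt2, which belonged to no list and are given further below. Ccl3 and Cxcl2 encode chemokines, and Ptgs2 encodes the inducible cyclooxygenase that starts prostaglandin synthesis. Their promoters are shown with that of Zfp36, an immediate-early gene whose product destabilises cytokine mRNA. Each stretch is the 250 bases before the RefSeq transcription start in GRCm38.p6, 5' to 3' on the gene's strand, and capitals mark a match to the kappa B motif (Cxcl2) or the CArG box (Zfp36).
Ccl3, chr11:83649379-83649628, minus strand: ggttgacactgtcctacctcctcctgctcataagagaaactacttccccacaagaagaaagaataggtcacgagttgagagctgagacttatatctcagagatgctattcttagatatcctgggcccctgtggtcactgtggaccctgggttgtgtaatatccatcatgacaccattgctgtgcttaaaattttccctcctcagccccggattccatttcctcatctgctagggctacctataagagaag
Cxcl2, chr5:90903649-90903898, plus strand: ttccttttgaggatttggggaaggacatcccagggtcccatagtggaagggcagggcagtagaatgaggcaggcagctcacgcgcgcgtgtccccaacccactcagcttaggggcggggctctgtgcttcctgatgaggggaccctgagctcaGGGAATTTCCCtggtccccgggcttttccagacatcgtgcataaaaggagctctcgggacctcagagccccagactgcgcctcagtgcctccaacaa
Ptgs2, chr1:150099781-150100030, plus strand: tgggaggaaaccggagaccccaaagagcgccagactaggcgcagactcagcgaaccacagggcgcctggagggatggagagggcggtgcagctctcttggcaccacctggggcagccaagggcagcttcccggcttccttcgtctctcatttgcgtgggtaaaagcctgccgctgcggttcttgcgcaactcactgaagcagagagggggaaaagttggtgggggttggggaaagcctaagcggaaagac
Zfp36, chr7:28379229-28379478, minus strand: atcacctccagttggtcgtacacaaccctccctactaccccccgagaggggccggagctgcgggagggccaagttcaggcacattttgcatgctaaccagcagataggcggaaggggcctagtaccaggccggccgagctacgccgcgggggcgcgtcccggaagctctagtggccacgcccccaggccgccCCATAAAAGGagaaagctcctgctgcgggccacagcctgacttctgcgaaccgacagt
The kappa B motif, bound by NF-kappa B, matched in Cxcl2 at bases -97 to -87, on both strands of the same stretch. The CArG box, bound by serum response factor, matched in Zfp36 at bases -58 to -49. Neither motif, nor TGANTCA, nor TGACG, was found on either strand in these windows of Ccl3 and Ptgs2. Over all 32851 RefSeq promoters of this length, 3.9% held a kappa B match and 1.47% a CArG match. A match is a description of the letters and does not show a bound site.

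Ccl3 read 11.21, 9.30, 9.29 and 9.39 in transition 1 to 4 and 6.20, 7.10 and 7.59 in senescence 1 to 3. Every senescence array lay below every transition array, and the difference was -2.83 ± 0.48 (SE, n = 3 and 4, adjusted p = 0.405 by limma). The senescence mean lay within 1 log2 unit of the lower quartile of the arrays (6.13 to 6.32), so no fold is given. Proliferation arrays read 6.50 to 7.77 and wild-type arrays 5.83 to 6.97, which puts transition apart from all 3 other groups of marrow.

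Cxcl2 read 12.86, 9.54, 10.24 and 10.66 in transition and 8.40, 6.27 and 7.37 in senescence. Again the groups did not overlap, and the difference was -3.48 ± 0.65 (11.1-fold, adjusted p = 0.528 by limma). Senescence 2 lay near the lower quartile of its array (6.24), so the fold is a rough value. The proliferation range was 7.04 to 7.45 and the wild-type range 6.94 to 8.41. Senescence 1, the female array, was the highest of its group, at a level still below that of transition 2.

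Ptgs2 read 8.89, 5.85, 7.45 and 6.81 in transition and 5.21, 4.88 and 5.16 in senescence (-2.17 ± 0.46, adjusted p = 0.999995 by limma). Every gene of larger p had an adjusted p at least as high in this fit. The senescence values of Ptgs2 were at background, as were those of proliferation (5.01 to 5.38) and wild type (4.73 to 5.18). A second, dimmer probe set of Ptgs2 differed by only -0.24. Transition 1 was the highest array for all 3 genes. Without it the differences were -2.36 ± 0.39 for Ccl3, -2.80 ± 0.49 for Cxcl2 and -1.62 ± 0.29 for Ptgs2, with adjusted p = 0.146, 0.155 and 0.155 by limma. Monocyte markers had a mean level of 11.55 to 12.48 in transition and 12.09 to 12.45 in senescence, and transition 1, with the most Ccl3 and Cxcl2, had the lowest mean. The part of cell composition in these values was not tested.

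**Figure D2:**
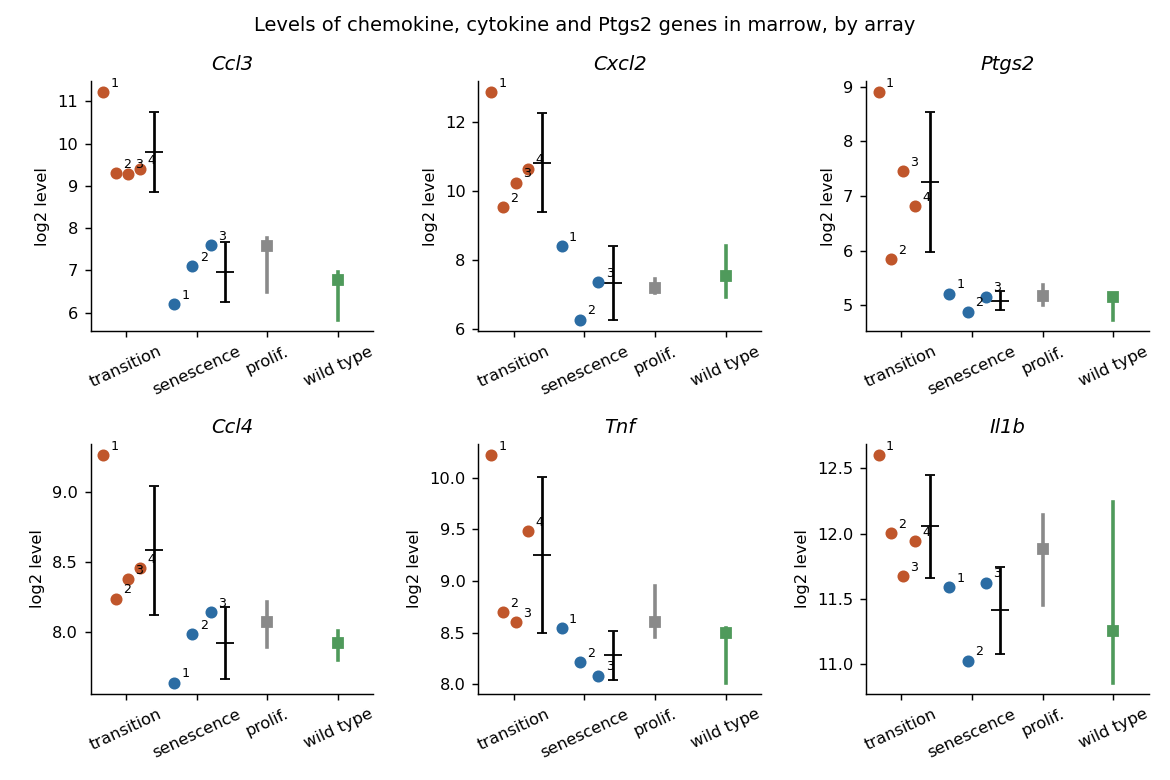
Log2 level of 6 inflammatory genes in each transition array (orange) and senescence array (blue), numbered by replicate, with the mean and SD as black bars and the median and range of the 4 proliferation arrays (grey) and 4 wild-type arrays (green). All senescence points lie below all transition points in the 6 panels, and transition 1 is highest in each.

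Among other ligands the differences were smaller. Ccl4, the neighbour and relative of Ccl3, read 9.27, 8.24, 8.38 and 8.46 in transition and 7.64, 7.99 and 8.14 in senescence (-0.66 ± 0.20, and -0.44 without transition 1). Tnf, the cytokine that starts many inflammatory cascades, read 10.22, 8.70, 8.60 and 9.48 against 8.54, 8.21 and 8.08 (-0.97 ± 0.31, and -0.65 ± 0.23 without transition 1). For both genes the groups did not overlap. Il1b, the fever-inducing interleukin of monocytes and neutrophils, was between 11.67 and 12.60 in transition and between 11.03 and 11.62 in senescence, again without overlap (-0.64 ± 0.31). Ifng, the interferon of T and NK cells, differed by -0.70 ± 0.25 near background, and Il6, a common secreted factor of senescent cells, by -0.45 ± 0.31 with overlapping arrays.

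Of 16 chemokine genes measured, 3 were lower at an unadjusted p under 0.05, and these were Ccl3, Ccl4 and Cxcl2. Another 2, Ppbp and Pf4, were higher, and they are products of platelets. Over all genes 1.71% were lower and 1.36% higher by the same rule. The median difference of the list was -0.07, and it ran to 0.06 without senescence 1. Of 17 cytokine genes, 2 (Tnf and Ifng) were lower and 0 higher, with a list median of -0.05 beside -0.03 for all genes. The differences thus lay in a few members of each list. Among 16 chemokine and cytokine receptors, Cxcr4, which holds blood cells in the marrow through its ligand CXCL12, differed by -0.44 ± 0.17 (-0.27 without senescence 1), while Cxcr2, the receptor for CXCL2 on neutrophils, differed by 0.36 ± 0.22 with overlapping arrays.

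NF-kappa B subunits and feedback genes were split. Of 20 such genes, 10 differed above 0 and 10 below, with a median of -0.01. Rel, a subunit of lymphoid and myeloid cells, read 7.85 to 8.06 in transition and 7.27 to 7.60 in senescence (-0.44 ± 0.13). Bcl3, a nuclear partner of p50 and p52, read 8.94 to 9.32 in transition and 9.49 to 10.10 in senescence (0.73 ± 0.22), so the groups did not overlap in either case. Nfkbia, the inhibitor that NF-kappa B itself induces, differed by 0.11 ± 0.13. It was chosen after its values were seen. Of the 20 promoters found for 16 of these genes, 10 held a kappa B match, and of 10 chemokine promoters 4 did. Among the promoters of all measured genes the share was 4.57%. Among 16 prostaglandin genes, Ptgs2 was the 1 member lower at an unadjusted p under 0.05, beside 1.71% of all genes, and 0 were higher. Hpgd, which degrades prostaglandins, read 12.83 to 13.84 in transition and 12.78 to 13.44 in senescence. Its difference was -0.40, and a second, dimmer probe set differed by 0.31. The receptor Ptger3, near background in transition, differed by 0.70 ± 0.40.

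Immediate-early genes respond to growth factors and stress without new protein synthesis. Of 25 measured, 24 had a difference below 0, beside 6973 of all 12394 genes. Of the 25, 7 had an unadjusted p under 0.05, all 7 lower, beside 1.71% of all genes. The list was chosen with earlier results of these data known, so these counts describe it and do not test it. The list median was -0.41 against -0.03 for all genes. The list mean was 11.01, 10.22, 9.79 and 10.36 in transition 1 to 4 and 9.87, 9.59 and 10.01 in senescence 1 to 3. Transition 1 was the highest and transition 3 lay among the senescence arrays, so the groups overlapped. In proliferation the list mean was 9.75 to 9.88 and in wild type 9.55 to 9.76.

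The AP-1 subunits showed this unevenness. Fos read 14.65, 13.68, 10.28 and 14.11 in transition and 13.13, 10.68 and 11.15 in senescence (-1.53 ± 0.90). Transition 3 had less Fos than every senescence array. Jun, the partner of Fos, read 10.47, 8.82, 8.14 and 8.45 against 7.86, 8.05 and 8.04, the 1 member of the list without overlap (-0.99 ± 0.39, and -0.49 ± 0.20 without transition 1). Of further subunits, chosen after their values were seen, Fosb differed by -1.10 ± 0.56, Junb by -0.85 ± 0.42 and Jund by -0.01 ± 0.22.

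Egr1, a zinc finger factor that growth signals induce, read 12.46, 10.39, 9.34 and 10.98 in transition and 9.45, 9.42 and 9.80 in senescence (-1.24 ± 0.46, and -0.68 ± 0.29 without transition 1). Egr2, its relative, read 7.72, 8.86, 8.41 and 7.18 against 6.16, 7.02 and 7.41 (-1.18 ± 0.39, near background in senescence). Here transition 2, not transition 1, was the highest array. Zfp36 read 13.91, 12.89, 11.94 and 12.88 against 11.52, 11.55 and 12.52 (-1.04 ± 0.36, and -0.70 without transition 1), with overlap through transition 3 and senescence 3. Among feedback and stress genes chosen after their values were seen, the phosphatase genes Dusp1 and Dusp2 differed by -0.82 ± 0.48 and -0.73 ± 0.33, Ier2 by -0.55 ± 0.22 and Ier5 by -0.47 ± 0.20. Gadd45b (0.04 ± 0.15) was the 1 member above 0.

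The list median was -0.28 without transition 1, -0.27 without senescence 2 and -0.60 without transition 3. With the Gapdh difference as covariate it was -0.46, and with the Xist level it was -0.54. Promoters were found for 21 of the 25 genes, 25 in all. TGACG, the half-site of the cyclic AMP response element, was present in 14 of them, beside 23.2% of the promoters of measured genes. The kappa B motif was present in 4 (4.57% of the promoters of measured genes) and TGANTCA in 0 (5.67%). The CArG box was present in 5 promoters (1.34%) of 2 genes, Zfp36 among them. All motifs were searched on both strands and counted apart.

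**Figure D3:**
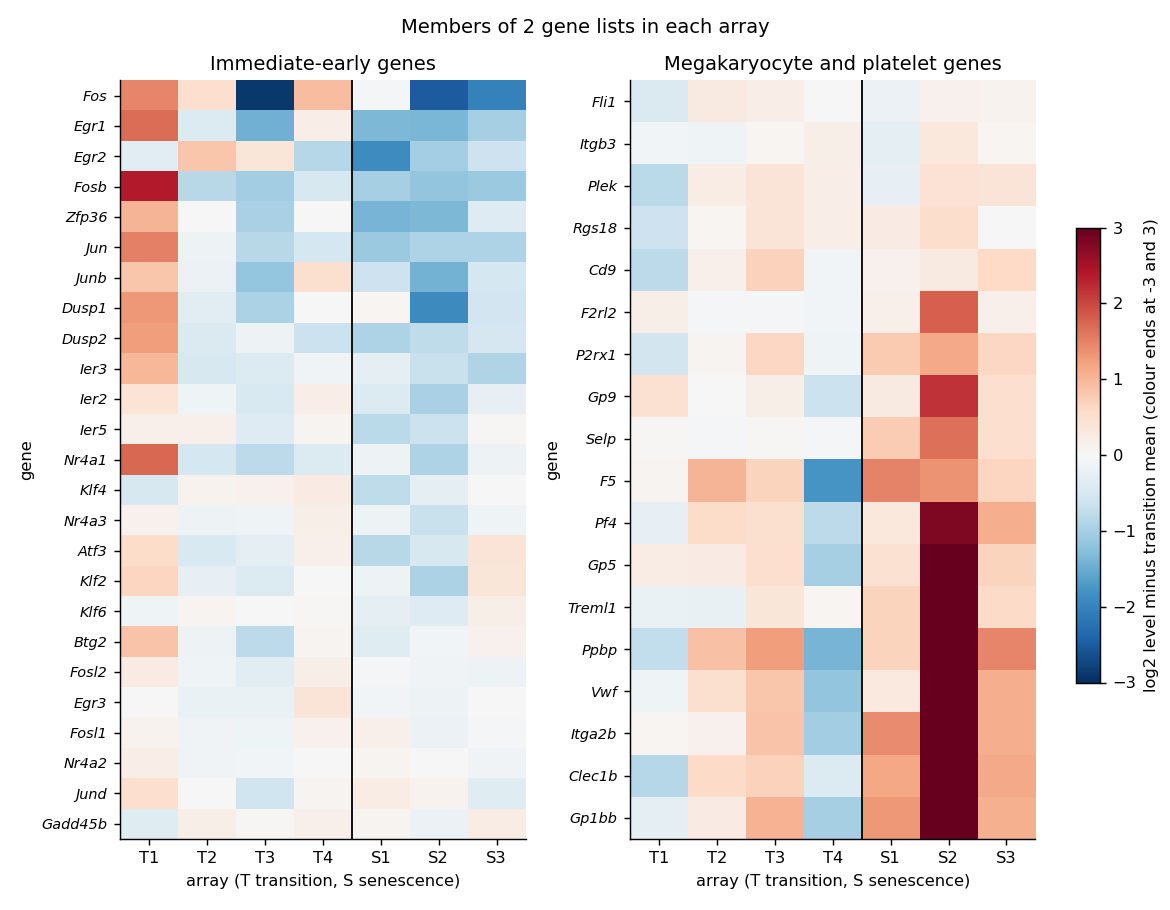
Log2 level minus the mean of the 4 transition arrays for each member (rows) of the immediate-early list and the megakaryocyte and platelet list in the 7 arrays (columns), red above and blue below that mean. Transition 1 is red for most immediate-early genes, transition 3 is blue for Fos and Egr1, and senescence 2 is the reddest column for the platelet genes.

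Inhibitors of cyclin-dependent kinases and other senescence genes were compared next, since the label of the group names that state. Cdkn2d, which encodes the inhibitor p19 of CDK4 and CDK6, read 11.34, 11.31, 11.52 and 11.32 in transition and 11.95, 11.63 and 11.92 in senescence (0.46 ± 0.12). Every senescence array lay above every transition array, and the wild-type arrays read 11.68 to 11.90, like senescence. For the classical inhibitors the groups overlapped. Cdkn1a (p21) read 11.02, 10.05, 10.23 and 10.29 against 10.36, 10.14 and 10.14 (-0.18 ± 0.22), Cdkn2a (p16 and p19ARF) differed by -0.12 ± 0.16 at background, and Cdkn2b (p15) by -0.26 ± 0.16.

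Cdkn2c (p18) differed by -0.32 ± 0.20 with overlap. Secreted products of senescent cells were uneven. Igfbp3, which binds insulin-like growth factors, read 9.09, 7.49 and 5.91 in senescence 1 to 3. In transition it read 5.45 to 6.85, near background (1.43 ± 0.66, and 0.64 without senescence 1). Timp1, an inhibitor of matrix proteases, read 6.59 to 7.04 in transition and 7.23 to 7.80 in senescence, near background and without overlap (0.58 ± 0.27). Of the 20 genes of this list, 2 were higher at an unadjusted p under 0.05 (Cdkn2d and Igfbp3) and 0 lower. Over all genes 1.36% were higher and 1.71% lower by that rule. The list median was 0.04. It turned to -0.05 without senescence 3.

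DNA damage response genes belong to the pathway whose activity the labels set high in transition. Of 24 genes 19 had a difference below 0, beside 6973 of all 12394 genes. The list median was -0.20. Of the 24, 0 had an unadjusted p under 0.05, beside 1.71% lower and 1.36% higher over all genes. Atm, the kinase that senses double-strand breaks, read 7.30, 8.10, 8.25 and 8.02 in transition and 6.99, 7.60 and 7.60 in senescence (-0.52 ± 0.28). Rad50, part of the complex that holds broken ends and recruits ATM, read 9.85 to 10.38 against 9.51 to 9.78, without overlap (-0.48 ± 0.25). A second probe set of Rad50, at background, differed by 0.17. Nbn of the same complex differed by -0.46 ± 0.31 and the end-joining kinase gene Prkdc by -0.43 ± 0.26. Chek1 (-0.14 ± 0.26) and Chek2 (-0.33 ± 0.37), the checkpoint kinases, overlapped between groups. The list median was -0.03 with the Xist level as covariate. These are transcript levels and do not report phosphorylation.

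Of 24 p53 target genes, 3 were lower at an unadjusted p under 0.05 and 0 higher, with a median of -0.11, beside 1.71% lower and 1.36% higher over all genes. Pmaip1, which encodes the death-promoting protein NOXA, read 10.62, 10.73, 10.35 and 10.44 in transition and 8.63, 9.14 and 10.29 in senescence (-1.18 ± 0.34). The groups did not overlap, although senescence 3 lay within 0.1 of the lowest transition array. Plk3, a stress-induced kinase gene, read 10.28, 8.72, 9.29 and 8.85 against 8.56, 8.36 and 8.69 (-0.75 ± 0.31, and -0.42 without transition 1). Tnfrsf10b, a death receptor gene near background, differed by -0.49 ± 0.21, but a second probe set of like brightness differed by 0.27 and the mean of its probe sets by -0.11. Mdm2, the target that in turn degrades p53, differed by 0.05 ± 0.14.

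For genes of cell division the arrays overlapped. Mki67, the gene of the proliferation marker Ki-67, read 14.14, 14.33, 14.18 and 13.79 in transition and 13.90, 14.37 and 14.05 in senescence (0.00 ± 0.23). Pcna, the clamp of replicating DNA polymerase, differed by 0.05 ± 0.24. Over all genes, 6973 of 12394 lay below 0, and 1.71% were lower and 1.36% higher at an unadjusted p under 0.05. Of 31 genes of the G1/S step and replication 22 lay below 0 and 0 had an unadjusted p under 0.05 (median -0.10). Of 29 genes of G2 and mitosis 20 lay below 0 and 0 had such a p (median -0.08). With the Xist level as covariate the medians were 0.06 and 0.11. Bub1, a spindle checkpoint kinase gene (-0.43 ± 0.31), and Cdk6, a kinase of G1 and an MLL fusion target (-0.67 ± 0.38), had overlapping arrays. Cdk6 was near background in senescence. A second, dimmer probe set of Bub1 differed by 0.37, and the mean of its probe sets by -0.03.

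**Figure D4:**
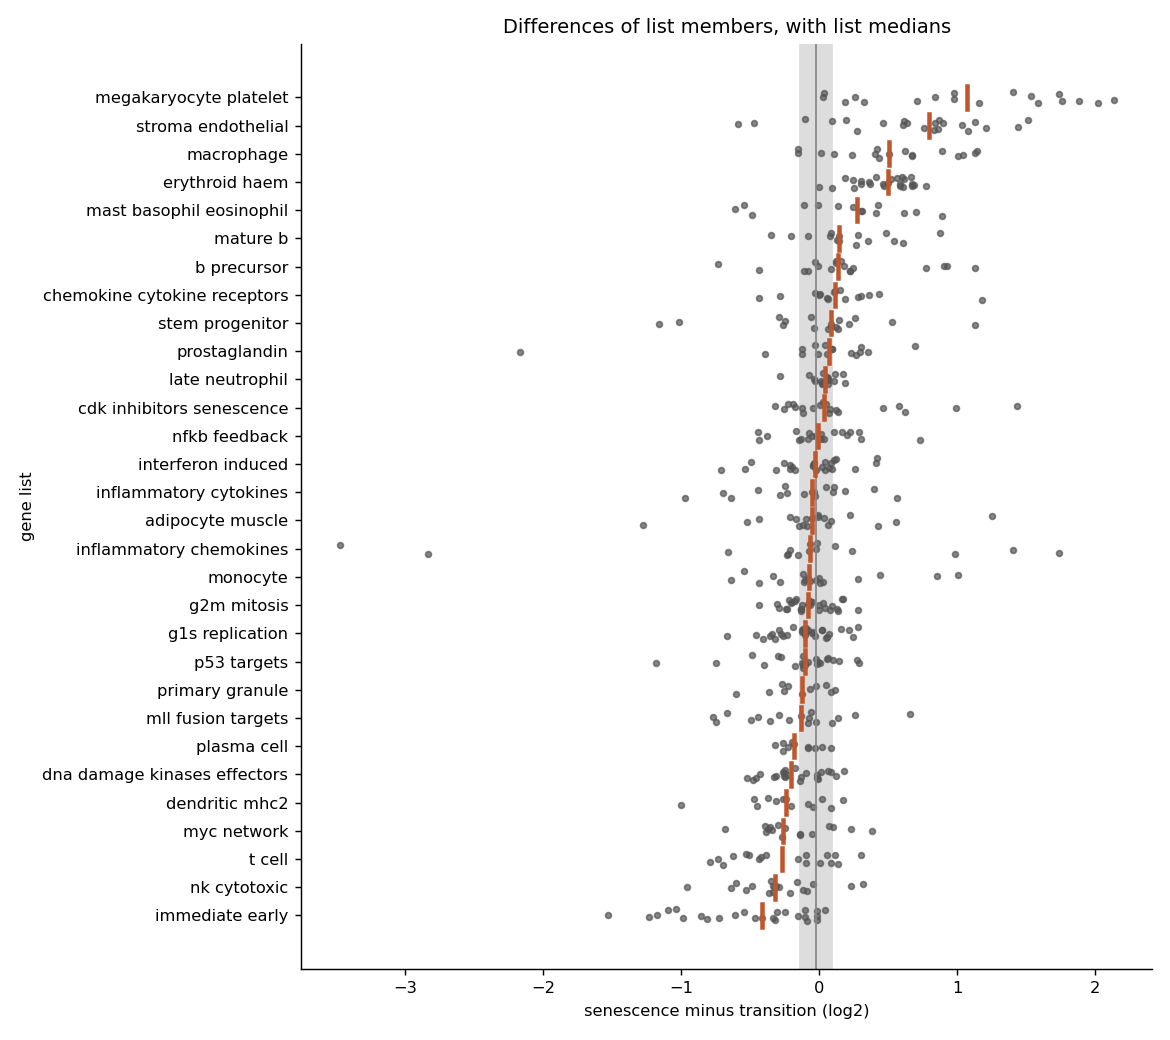
Senescence minus transition on the log2 scale (horizontal axis) for each member (points) of 30 gene lists (rows), with the list median in orange. The grey band is the middle range between quartiles of all genes (-0.143 to 0.0938). The immediate-early list has the lowest median (-0.41) and the megakaryocyte and platelet list the highest (1.07).

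Targets of MLL fusions keep blood progenitors immature. Hoxa9, the best known of them, read 12.76, 13.61, 13.18 and 13.08 in transition and 12.30, 12.66 and 13.03 in senescence (-0.50 ± 0.21). Hoxa10, its neighbour, read 9.32, 10.19, 9.21 and 9.22 against 8.12, 8.70 and 9.32 (-0.77 ± 0.27). Both genes overlapped through senescence 3 and stayed above the wild-type arrays, which read 10.81 to 11.30 for Hoxa9 and 5.95 to 6.59 for Hoxa10. Myb, a transcription factor of progenitors, differed by -0.75 ± 0.29. Without senescence 1 the differences were -0.31 for Hoxa9, -0.47 for Hoxa10 and -0.40 for Myb, and none of the 3 had an unadjusted p under 0.05 there. Meis1, the partner of HOXA9, differed the other way (0.26 ± 0.20), and by 0.00 without senescence 2. Of the 17 targets measured 3 were lower at an unadjusted p under 0.05 and 0 higher, beside 1.71% and 1.36% of all genes. Their median was -0.13, and -0.26 with the Xist level as covariate. The mouse genes of the fusion partners, Kmt2a (-0.03 ± 0.18) and Mllt1 (-0.12 ± 0.17), had overlapping arrays.

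Progenitor genes gave a mixed picture. Cd34, a surface protein of stem and progenitor cells, read 9.50, 10.42, 10.68 and 10.78 in transition and 8.44, 9.65 and 9.89 in senescence (-1.02 ± 0.37, and -0.57 without senescence 1). Sox4, a factor of early progenitors, read 10.47 to 11.33 against 8.67, 9.99 and 10.64 (-1.16 ± 0.47, and -0.61 without senescence 1). Slamf1, a surface receptor of stem cells and platelets, was 10.08 in senescence 2 and 6.80 to 7.89 in the other arrays of both groups. The median of the 17 progenitor genes was 0.08. Myc, a driver of growth, differed by -0.68 ± 0.31 (-0.39 without transition 3). In the Myc network 12 of 16 genes lay below 0 (median -0.26), beside 6973 of all 12394 genes. Of the 16, 1 was lower at an unadjusted p under 0.05, beside 1.71% of all genes. With the Xist level as covariate the median of the Myc network was -0.13.

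Megakaryocyte and platelet genes were the list with the highest median. All 18 genes measured had a difference above 0 (43.7% of all genes), and the median was 1.07. Of the 18, 8 had an unadjusted p under 0.05 (1.36% of all genes) and 5 had no overlap (1.49% of all genes). This list too was chosen with earlier results of these data known, so its counts do not test it. The list mean was 9.53, 10.04, 10.30 and 9.30 in transition and 10.32, 11.88 and 10.45 in senescence. The lowest senescence array thus lay just above the highest transition array. The range was 10.13 to 11.69 in proliferation and 10.29 to 11.77 in wild type.

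Itga2b, the platelet integrin CD41, read 9.75, 9.84, 10.55 and 8.67 in transition and 11.12, 12.85 and 10.80 in senescence (1.89 ± 0.66, and 1.26 ± 0.68 without senescence 2). Clec1b, the platelet receptor CLEC-2, read 8.55, 10.00, 10.09 and 9.00 against 10.57, 13.18 and 10.54 (2.02 ± 0.75, and 1.14 ± 0.72 without senescence 2). Both were without overlap, and senescence 2 was far above the other arrays. Ppbp, a chemokine stored in platelet granules, read 10.54, 12.16, 12.53 and 9.88 against 11.93, 14.36 and 12.75 with overlap (1.74 ± 0.68, and 1.06 without senescence 2). P2rx1, an ATP-gated channel of platelets, differed by 0.84 ± 0.31.

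Other members were chosen after their values were seen. Gp1bb (2.13 ± 0.96), Vwf (1.76 ± 0.84), Pf4 (1.40 ± 0.57) and Selp (0.98 ± 0.40), which encode a subunit of the platelet receptor for von Willebrand factor, that factor itself, platelet factor 4 and P-selectin, each had their highest value in senescence 2. Fli1 (0.03 ± 0.22), Plek (0.19 ± 0.26) and Rgs18 (0.26 ± 0.22), which other blood cells share, were among the smallest differences. The list median was 0.63 without senescence 2 and 0.57 with the Xist level as covariate. Senescence 2 also had the largest Gapdh difference, and with that as covariate the median was 0.94.

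**Figure D5:**
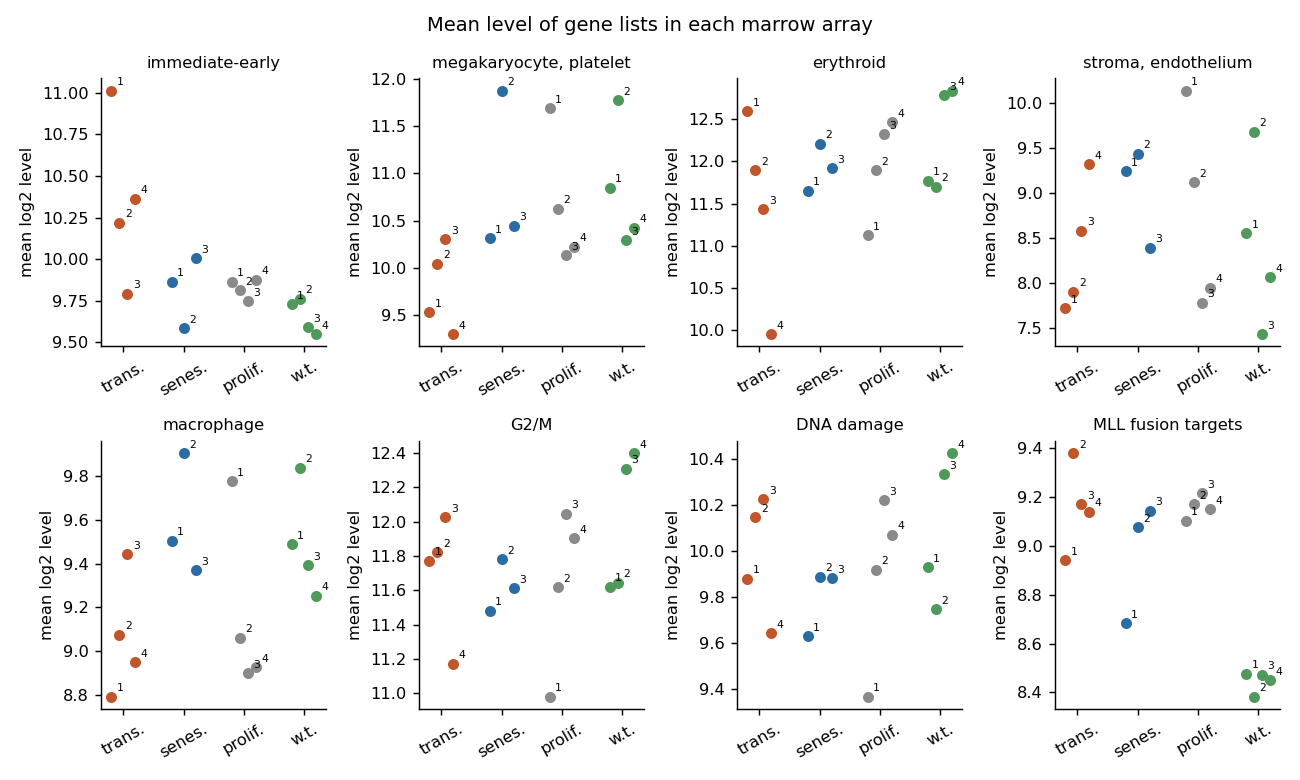
Mean log2 level (vertical axis) of 8 gene lists in each of the 15 marrow arrays, numbered by replicate, for transition, senescence, proliferation and wild type (w.t.). The immediate-early list is highest in transition 1, the megakaryocyte and platelet list in senescence 2, and the erythroid list lowest in transition 4.

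Erythroid genes, which serve haemoglobin synthesis and the red cell membrane, all lay above 0 (25 of 25, beside 43.7% of all genes). They had a median of 0.49. At an unadjusted p under 0.05 there were 0, beside 1.36% of all genes higher and 1.71% lower. Their list mean was 12.6, 11.89, 11.43 and 9.95 in transition 1 to 4 and 11.65, 12.21 and 11.92 in senescence 1 to 3. Transition 1 was above every senescence array, and the groups overlapped. Alas2, the first enzyme of red cell haem synthesis, read 14.24, 13.22, 13.09 and 11.23 in transition and 13.38, 13.74 and 13.74 in senescence (0.67 ± 0.51). The direction rested on transition 4, without which the list median was -0.06, and it was 0.89 without transition 1.

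Macrophage markers had a median of 0.51, with 15 of 17 above 0, beside 43.7% of all genes. At an unadjusted p under 0.05, 2 of the 17 were higher, beside 1.36% of all genes, and 0 lower. Mrc1, the mannose receptor, read 8.53, 8.39, 9.34 and 8.79 in transition and 9.68, 10.30 and 8.97 in senescence (0.89 ± 0.37, and 0.57 without senescence 2). Cd5l, a secreted product of tissue macrophages, differed by 0.67 ± 0.30 and Hmox1, which breaks down haem, by 0.51 ± 0.25 without overlap. Stroma and endothelium genes had a median of 0.80 with wide spread in both groups. Of 22 such genes 19 lay above 0, and 1 was higher at an unadjusted p under 0.05 (43.7% and 1.36% of all genes). Their list mean was 7.72, 7.91, 8.58 and 9.32 in transition and 9.25, 9.44 and 8.40 in senescence, so the arrays overlapped. Cdh5, the cadherin of endothelial junctions, was the 1 member without overlap (1.03 ± 0.42, near background). The stroma median was 0.37 without transition 1 and 0.29 with the Xist level as covariate.

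Lymphoid lists differed to both sides. Of 19 NK and cytotoxic genes 17 lay below 0, beside 6973 of all 12394 genes (list median -0.32, and -0.06 without senescence 1). Gzmb, a protease of cytotoxic granules, read 8.34 to 9.23 in transition and 7.59, 7.04 and 8.50 in senescence (-0.96 ± 0.39, and -0.62 without senescence 2). T cell genes had a median of -0.27 and dendritic and class II genes of -0.24, which turned to 0.07 without senescence 1. B cell precursor genes had a median of 0.14, with 12 of 18 above 0 and 6 below, beside 43.7% of all genes above 0. At an unadjusted p under 0.05, 2 of the 18 were higher, beside 1.36% of all genes, and 0 lower. Vpreb1, part of the surrogate light chain, had the largest difference of the list (1.13 ± 0.47, near background in transition). It read 7.92 and 8.69 in senescence 2 and 3 and 5.88 to 6.88 in the other arrays of both groups. Its difference was 0.58 without senescence 3 and 1.83 without senescence 1, and the list median was 0.02 without senescence 3. Wild-type arrays read 9.30 to 10.73 for Vpreb1. Mature B genes had a median of 0.15 (0.35 without transition 1), and plasma cell genes of -0.18 (-0.01 with the Xist level as covariate).

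Granulocytes and monocytes make up most of the myeloid marrow. Primary granule genes had a median of -0.12, mature neutrophil genes of 0.04 and monocyte genes of -0.07. Of these 47 genes 1 had an unadjusted p under 0.05 (Fcgr1, 0.85 ± 0.39, near background in transition). Over all genes 1.36% were higher and 1.71% lower by that rule. The primary granule median was -0.31 without transition 1 and 0.00 without transition 3. The neutrophil and monocyte medians were -0.06 and -0.27 without transition 1. Ctsg, a protease of early granules, differed by -0.37 ± 0.23, and Mmp8, the neutrophil collagenase, by 0.17 ± 0.17.

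The remaining genes of smallest p belonged to no list. Nrg4, a ligand of the epidermal growth factor receptor family, read 8.59, 9.75, 10.55 and 9.69 in transition and 8.13, 7.34 and 8.55 in senescence (-1.64 ± 0.37), with 6.96 to 7.23 in wild type. Hcar2, the niacin receptor of neutrophils and macrophages, read 9.55 to 10.38 against 8.80, 8.87 and 9.42 (-0.89 ± 0.22). Etv6, a repressor needed by blood stem cells, differed by -0.58 ± 0.15 and the kinase gene Ripk4 by -1.58 ± 0.45. Nrg4, Hcar2 and Etv6 did not overlap between groups, and Ripk4 did. All were picked by their p in this same comparison, so a lack of overlap does not test them. The other genes on the lower side were Bex6 (-1.39, and -0.89 without senescence 1), Klk1b27 (-1.05), Zfp113 (-0.65), Rpap2 (-0.46) and Dnajc5b (-0.38). Ripk4, Klk1b27, Zfp113 and Dnajc5b were near background in senescence.

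On the higher side, Ttc39b read 7.36, 7.94, 7.99 and 7.66 in transition and 8.68, 8.79 and 8.25 in senescence (0.84 ± 0.18). Cttn, the actin-binding protein cortactin that platelets also hold, read 8.65 to 9.42 in transition, 10.56 and 9.84 in senescence 1 and 3, and highest in senescence 2 (1.87 ± 0.51). Ugt8a, a galactosyltransferase, read 6.68, 7.03, 5.26 and 4.86 against 9.95, 8.77 and 7.21 (2.69 ± 0.73, near background in transition). Cyp4b1, a cytochrome P450, differed by 0.70 ± 0.17 and Gspt2, a translation termination factor, by 0.90 ± 0.22 (near background in transition). These 5 genes did not overlap between groups, which does not test them, since they too were picked by p. Serpinb2 (1.56), Ces1d (1.56), Tceal8 (1.55), Mest (0.71), Yes1 (0.68) and Smg6 (0.49), with Cdkn2d above, completed the 12. Of them Yes1 and Smg6 were without overlap, and Yes1, Smg6 and Mest were near background.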

How the data were processed

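Total RNA of bone marrow was measured on a mouse expression array of 22690 probe sets. The values the authors deposited are on a log2 scale, and the submitters' processing notes name RMA, affy and limma. Their versions and settings: not given in the sources used here. GEO's platform annotation gave a single symbol to 20393 probe sets and several to 691, and did not list 1606. A gene was its brightest probe set with 1 symbol over the 15 marrow arrays, with no filter on dim values.

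Groups came from the labels. The 4 marrow groups entered a single linear model (limma 3.58.1, lmFit and eBayes, R 4.3.3), with the contrast senescence minus transition and Benjamini-Hochberg adjustment over 12394 genes at 0.05. Differences are log2 values ± SE of this fit. Arrays give no read depth, and their number limits the precision. The fit was tested on simulated data.

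Named genes were the 12 lower and 12 higher with the smallest p, without placeholder symbols or antigen receptor segments, up to 4 members of each of 31 lists, and fixed anchors. The members and lists were chosen with earlier results of these data known. Gapdh and Xist were tested by exact permutation over the 35 splits of 7 arrays. RefSeq promoters (GRCm38.p6) were matched by symbol. Figures were drawn with matplotlib 3.10.9. Replicate numbers link no mice in the labels. Same-numbered arrays correlated at 0.241, 0.0272 and 0.305 in their deviations from the group means, and differently numbered arrays at -0.407 to 0.355. The labels name no pairs, so the numbers were not used as pairs. The 26 alternatives were another normalization, centring, the genes above the median level, probe set means, other sets of arrays, other variance options, array weights, the replicate block, covariates and each array left out.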

Additional observations from a re-analysis of the deposited data

Results flagged for a closer look

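In 12 of 186 gene and list values tested over the 4 transition arrays, the highest or lowest array stood apart from the others by Dixon's test at the 95% level. Chance flags about 5% of such groups, and 7 genes and 5 list means were marked here.

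Transition 1 was the array in 8 of the 12. It was highest for Ccl3 (11.21, the nearest array at 9.395), for the cell cycle factor gene E2f3 (8.242, nearest 7.722) and for the B cell factor gene Spib (9.758, nearest 8.056). It was lowest for Hpgd (12.83, nearest 13.73). Its mean was the highest for B cell precursor genes (8.722, nearest 8.14). It was the lowest for chemokine and cytokine receptors (10.55, nearest 11.4), mature neutrophil genes (13.91, nearest 14.31) and monocyte genes (11.55, nearest 12.41).

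Of the other 4, Hoxa10 was highest in transition 2 (10.19, nearest 9.317) and Cdkn2d was highest in transition 3 (11.52, nearest 11.34). Transition 4 was lowest for Car2, the carbonic anhydrase of red cells (12.84, nearest 14.43), and for the mean of G1/S and replication genes (10.56, nearest 11.15). Groups of 3 arrays were not tested.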

How the results depend on the processing

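No gene passed the adjusted threshold of limma in the reported fit or in any of the 26 alternatives. The number of genes at unadjusted p under 0.05, 380, became 118 among genes above the median level and 2169 with array weights, and lay between 231 (without senescence 1) and 1152 (without transition 1) when 1 array was left out, with 732 without senescence 3. With the replicate number as a block there were 440, and no gene was called with or without this block. Some alternatives change only the test and cannot move a difference. They are each proliferation or wild-type array left out, the compared groups alone, all 29 arrays, and other variance options. For the difference of a gene this also holds for the fit of genes above the median level. For a gene with 1 probe set it holds for probe set means as well. The counts of kept signs below include these fixed outcomes. Of 4073 pairs of a named gene and an alternative 34 had the opposite sign, among them Derl3 at 0.06592 with the Xist level as covariate and Meis1 at -0.0002484 without senescence 2, against -0.26 and 0.26 in the reported fit. For Meis1 the fits with 1 array left out ran from -0.0002484 to 0.4087. The cause of these moves was not tested. Genes without overlap, 221 lower and 185 higher, ran from 63 and 64 among genes above the median level to 1066 and 545 without senescence 3, where fewer arrays have to be apart. Ccl3, Cxcl2 and Ptgs2 kept their sign in 25 of 25 alternatives, with ranges of -3.15 to -2.36, -4.00 to -2.61 and -2.64 to -1.20. They were picked for the smallest p in this same comparison, so their kept signs describe them and do not test them. With array weights, which give transition 1 little weight, Ccl3 had adjusted p = 0.0819 by limma. The immediate-early and the megakaryocyte medians kept their sign in 26 of 26, from -0.60 to -0.27 and from 0.57 to 1.40. Of the 30 list medians, sex-linked genes apart, 15 kept their sign in every alternative and 15 changed it in at least 1, among them the erythroid, dendritic, G1/S, G2 and mitosis, receptor and NF-kappa B lists. With 1 array left out the Gapdh difference ran from 0.00 to 0.40 and the Xist difference from -5.56 to -2.64. The groups hold 3 and 4 arrays, probe sets near the lower quartile of their array compress differences, and sex, tamoxifen time and state cannot be fully told apart.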

Other observations

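Mast cell, basophil and eosinophil genes had a median difference of 0.27 (9 of 14 above 0, beside 43.7% of all genes), and 0.02 without senescence 1. Ccr3, the eotaxin receptor of eosinophils, read 8.13, 5.52 and 7.28 in senescence 1 to 3 and 5.50 to 6.46 in transition (0.89 ± 0.45, near background). Prg2, the major basic protein of eosinophil granules, read 13.90 to 14.98 in transition and 14.62 to 14.92 in senescence. Of 24 interferon-induced genes 11 lay above 0 (median -0.03), beside 43.7% of all genes. Of the 24, 0 had an unadjusted p under 0.05, beside 1.71% lower and 1.36% higher over all genes. Gbp3, a guanylate-binding protein, differed by -0.71 ± 0.36, and Psmb8, an immunoproteasome subunit, by -0.54 ± 0.35, while Stat2, which carries the interferon signal, differed by 0.26 ± 0.16.

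Fat and muscle genes split. Fabp4, a fatty acid carrier of fat and endothelium, read 11.31, 11.98 and 10.56 in senescence and 9.27 to 10.68 in transition (1.25 ± 0.61). Ckm, the muscle creatine kinase, read 8.04, 7.13 and 8.61 in senescence and 8.82 to 10.01 in transition (-1.28 ± 0.69, without overlap). Osmr, the receptor of oncostatin M, was 5.32 in transition 1 and between 7.10 and 9.63 in the other 6 arrays.

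Of 155 named genes 48 had more than 1 probe set, and for 14 of them a probe set differed in the opposite direction. A second probe set of Jun differed by -2.11 where the brightest gave -0.99. The 5 probe sets of Cttn ran from 0.01 to 1.87, and a dimmer probe set of Ugt8a differed by 0.15 where the brighter gave 2.69.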
